A study of Arabidopsis thaliana with 26 samples.

Results

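The oxidation of the hydroxyl group at C-3 is one reaction of brassinosteroid synthesis that takes place in both branches of the pathway, with and without a ketone at C-6. Its effect on gene expression was read by comparing seedlings given the 3-oxo products with seedlings given their 3β-hydroxy substrates. The 8 arrays were chosen by the treatment in their labels alone, out of 26 in the series, with 2 arrays, A and B, for each compound. In the 6-oxo branch, which carries the C-6 ketone, the product was 3-dehydroteasterone and the substrate teasterone. In the 6-deoxo branch, which lacks that ketone, the product was 3-dehydro-6-deoxoteasterone and the substrate 6-deoxoteasterone. All 4 compounds were given at 1 µM for 3 h to 7-day-old Arabidopsis thaliana seedlings, and RNA of whole plants, labelled as de-etiolated, was hybridised to Affymetrix ATH1 arrays. All seedlings, controls included, carried the stock code N6159 in the Col background. The labels do not name the alleles of that stock, so a mutant genotype shared by all groups, mock included, remains possible. The label de-etiolated may name a growth state or a genotype. The other 18 arrays held mock treatment, campestanol at 10 µM, brassinolide at 10 nM, castasterone at 100 nM, and cathasterone, 6-deoxocathasterone, typhasterol, 6-deoxotyphasterol and 6-deoxocastasterone at 1 µM, and served as a reference for the brassinosteroid response. The sources do not say whether arrays A and B came from separate cultures, so p-values measure the spread between arrays, which may be technical.

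Brassinosteroids are plant steroid hormones that promote cell elongation. They are perceived at the cell surface by the receptor kinase BRI1, and the signal reaches the transcription factors BZR1 and BES1, which raise genes for loosening and building the cell wall and lower genes of hormone synthesis. In synthesis, teasterone has a β-oriented hydroxyl at C-3, oxidation gives the ketone of 3-dehydroteasterone, and reduction gives the α-oriented hydroxyl of typhasterol, so that the oxidation and the reduction together invert C-3. The same reactions run in the early branch, on compounds with the C-6 ketone, and in the late branch, on compounds without it. The pair of branches meets at castasterone, from which brassinolide is made. A fed intermediate can act as such or after the seedling has converted it, and these data do not tell these apart.

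Values are intensities in the authors' units, scaled to a trimmed mean of 100 per array, and a log2 difference is the 3-oxo compound minus the 3β-hydroxy compound on log2(intensity + 5), so that folds of dim probe sets are understated. Differences of a gene are given ± SE from limma, with the array letter as a block, over 17606 probe sets. The array letter was a visible source of variation: among the 8 arrays, pairs of different compounds with the same letter correlated at a median of 0.975 across probe sets, and pairs of the same compound with different letters at 0.967. Both root markers and photosynthesis genes were detected in these whole plants. The root-hair expansin genes EXPA7 and EXPA18 had mean intensities of 176 and 217, and the light-harvesting gene LHCB4.1 of 1466. One shoot marker stood apart on single arrays. The probe set of RCA, which encodes Rubisco activase, read 22.7 on teasterone B and 15.5 on 3-dehydro-6-deoxoteasterone B, against 500 to 1591 on the other 6 arrays. The list counts and the counts of called probe sets are therefore also given without both of these arrays. The ratio of 3′ to 5′ control probes of actin was 0.863 on 3-dehydro-6-deoxoteasterone B and 7.81 on 6-deoxoteasterone A, the lowest and highest of the 8, and the part of RNA quality in the results was not tested.

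Genes induced by brassinolide and castasterone stood higher after the 3-oxo compounds than after their 3β-hydroxy substrates, in both branches and by small amounts. The list held 524 probe sets that were called higher for both brassinolide and castasterone against mock in a fit on the 18 other arrays, so that the 8 arrays compared here had no part in choosing it. Of these, 496 had a higher value with the 3-oxo group, which is 94.7%, against 49.9% of all tested probe sets. Their median log2 difference was 0.24, where that of all probe sets was 0.00. The counterpart list of 178 brassinosteroid-repressed probe sets showed the mirror image, with 150 lower and a median of -0.15. In the 6-oxo branch the medians were 0.22 and -0.15, and in the 6-deoxo branch 0.27 and -0.15. Without the 2 arrays of low Rubisco activase, 482 of the 524 and 148 of the 178 kept these directions. These lists are described by counts and medians alone and were not tested as sets.

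The shift of the induced list was visible in the array means. The mean log2 level over the list was 6.96 and 7.23 on arrays A and B of teasterone and 7.31 and 7.37 on those of 3-dehydroteasterone. It was 6.77 and 6.99 after 6-deoxoteasterone and 7.06 and 7.23 after 3-dehydro-6-deoxoteasterone. In each branch both 3-oxo arrays lay above both substrate arrays, with the B arrays above the A arrays throughout. Mock stood at 6.45 and 6.32 and brassinolide at 7.56 and 7.60. On this scale from mock to brassinolide at 10 nM, teasterone reached 59.3% and 3-dehydroteasterone 79.7%, and 6-deoxoteasterone reached 41.1% and 3-dehydro-6-deoxoteasterone 63.3%. The doses differ, so these percentages place the compounds and do not compare their potency with that of brassinolide.

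**Figure D1:**
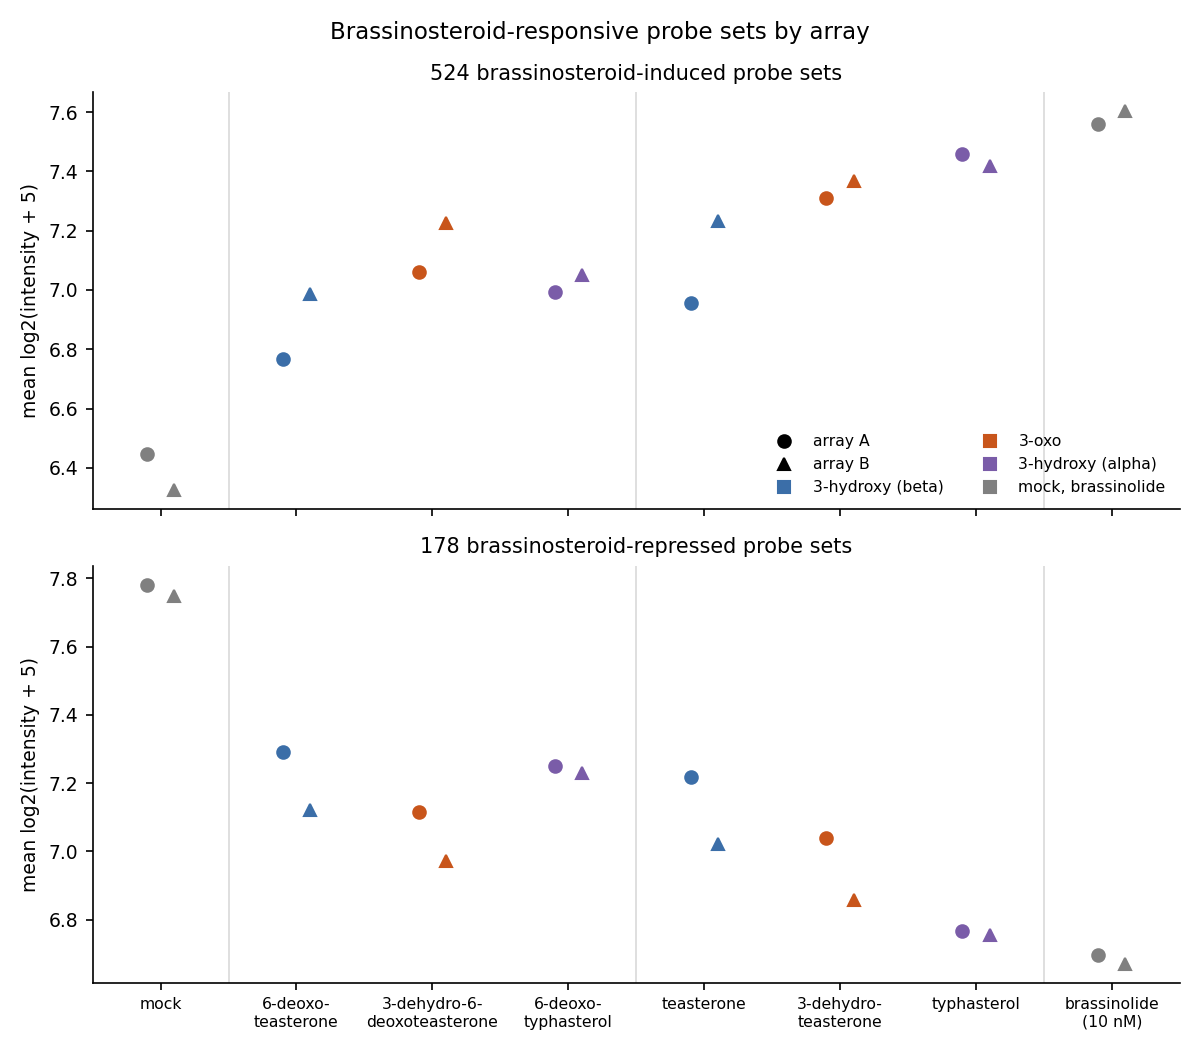
Mean log2(intensity + 5) over the 524 induced and the 178 repressed probe sets on each array (circle A, triangle B), for mock, the 3β-hydroxy, 3-oxo and 3α-hydroxy compounds of each branch at 1 µM, and brassinolide at 10 nM. In the induced list the 3-oxo arrays lie above their substrate arrays in both branches (7.31 and 7.37 against 6.96 and 7.23, and 7.06 and 7.23 against 6.77 and 6.99).

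Comparing arrays of one letter only, the list stood higher with the 3-oxo group in each of the 4 possible comparisons, though unequally. In the 6-oxo branch 471 of the 524 were higher on the A arrays, and 355 on the B arrays, where the median was 0.13 against 0.31. In the 6-deoxo branch 428 were higher on A and 429 on B, with medians of 0.29 and 0.23. For the repressed list the counts lower were 127 and 126 in the 6-oxo branch and 126 and 125 in the 6-deoxo branch. These counts are 70.2% to 71.3% of that list. Of all tested probe sets, 47.2% and 45.1% were higher on A and B in the 6-oxo branch, and 51.7% and 55.1% in the 6-deoxo branch. The repressed list's array means were 7.22 and 7.02 after teasterone and 7.04 and 6.86 after 3-dehydroteasterone, which overlap between letters. They were 7.29 and 7.12 after 6-deoxoteasterone and 7.11 and 6.97 after 3-dehydro-6-deoxoteasterone, which do not.

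On average over the branches, the size of the step followed the size of the response to brassinolide measured on the other arrays. The 249 induced probe sets that brassinolide raised by under 1 on the log2 scale had a median step of 0.19. The 229 raised by 1 to 2 had 0.31, with 221 of them higher. All 46 raised by over 2 were higher with the 3-oxo group, with a median of 0.44. For the repressed list the medians were -0.12, -0.22 and -0.28 over 108, 58 and 12 probe sets, of which 2 of the last 12 were higher.

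Tested one by one, almost no differences passed adjustment for the number of probe sets. On average over both branches, limma called 1 of 17606 probe sets at an adjusted p under 0.05, which is 0.00568%. It called 0 in the 6-oxo branch, 0 in the 6-deoxo branch and 0 for a difference between the branches, each 0%. Unadjusted p-values under 0.05 numbered 737, 1128 and 803 in these. The lowest adjusted p by limma was 0.696, 0.504 and 0.431. The median half-width of the 95% interval was 0.31 for the average and 0.44 for a single branch, wider than the median shift of the induced list. At an unadjusted p under 0.05, 515 probe sets (2.93%) were higher on average and 492 (2.79%) lower. Of the induced list 180 were among the higher and 0 among the lower, and of the repressed list 35 were among the lower and 0 among the higher. Both 3-oxo arrays lay above both substrate arrays in each branch for 399 probe sets (2.27%), and below them for 364 (2.07%). The induced list held 100 of the former and 0 of the latter, and the repressed list 0 and 17.

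The called probe set, 253103_at, names no gene in the annotation used and belongs to the induced list. It read 95.9 and 70.7 after teasterone and 149 and 126 after 3-dehydroteasterone, and 54.1 and 47.8 after 6-deoxoteasterone and 121 and 88.2 after 3-dehydro-6-deoxoteasterone. The 3-oxo arrays were above the substrate arrays in each branch, and all 8 were above mock at 15.1 and 5.50. The average log2 difference was 0.83 ± 0.13 (limma adjusted p = 0.0333), with 0.70 in the 6-oxo and 0.95 in the 6-deoxo branch. The call was lost without the replicate block (adjusted p = 1.00 in limma), without the 2 arrays of low Rubisco activase (0.235), and without any one of 7 of the 8 arrays; it held without 6-deoxoteasterone B, where the average had 6 calls.

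**Figure D2:**
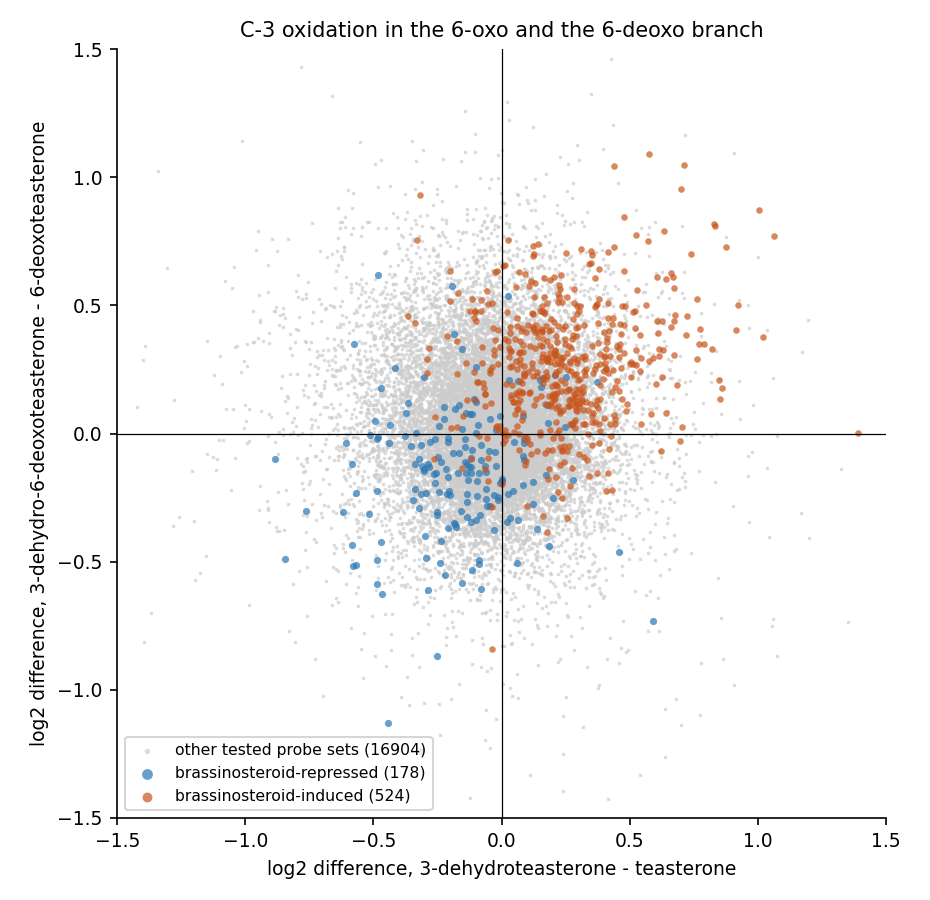
Log2 difference of every tested probe set across the C-3 oxidation in the 6-oxo branch (horizontal) and the 6-deoxo branch (vertical), with the 524 induced probe sets in orange, the 178 repressed in blue and the others in grey; 18 probe sets lie outside the window of 1.5. Of the induced probe sets 401 lie to the upper right, higher in both branches, and of the repressed 111 lie to the lower left.

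Among genes that loosen or remodel the wall, those already known here as brassinosteroid-induced stood higher with the 3-oxo group, while the other tested α-expansins and XTH genes outside that list had averages between -0.22 and 0.09. EXO (EXORDIUM), which promotes cell expansion in response to brassinosteroids, read 914 and 950 after teasterone and 1316 and 1095 after 3-dehydroteasterone. In the 6-deoxo branch it read 610 and 662 after 6-deoxoteasterone and 1019 and 923 after 3-dehydro-6-deoxoteasterone. The arrays did not overlap in either branch. Brassinolide read 1233 and 1087, near 3-dehydroteasterone, while both arrays of 3-dehydro-6-deoxoteasterone lay below both brassinolide arrays. The average log2 difference was 0.49 ± 0.16 (limma adjusted p = 0.626). EXPA8, an α-expansin, which loosens the wall at acid pH, read 154 and 150 after teasterone and 212 and 203 after 3-dehydroteasterone. After 6-deoxoteasterone it read 81.4 and 119, and after 3-dehydro-6-deoxoteasterone 207 and 134. The arrays were again apart in both branches, and 6-deoxoteasterone gave the lowest of the 4 compounds. Its average of 0.58 ± 0.14 missed the test (limma adjusted p = 0.452), but passed without 6-deoxoteasterone B (0.77, adjusted p = 0.0402). Of the 7 tested α-expansins, EXPA8 alone was in the induced list, 5 had averages below 0, from -0.22 to -0.05, and EXPA4 stood at 0.01.

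The XTH genes encode enzymes that cut and rejoin xyloglucan, the polymer that tethers cellulose in the wall. Of 8 tested members 0 passed and 3 had an unadjusted p under 0.05 in limma, all 3 higher, namely XTH18, XTH33 and XTH16. XTH18 read 108 and 272 after teasterone and 214 and 449 after 3-dehydroteasterone. It read 110 and 123 after 6-deoxoteasterone and 181 and 237 after 3-dehydro-6-deoxoteasterone. Within each letter the 3-oxo array was the higher in both branches, while across letters teasterone B exceeded 3-dehydroteasterone A. The average was 0.82 ± 0.21 (limma adjusted p = 0.476), and nearly equal in the branches (0.83 and 0.81). XTH33 read 60.9 and 131 after teasterone and 138 and 153 after 3-dehydroteasterone. It read 50.8 and 96.2 after 6-deoxoteasterone and 80.9 and 139 after 3-dehydro-6-deoxoteasterone. The 6-oxo arrays were apart and the 6-deoxo arrays overlapped, with an average of 0.62 ± 0.19 (limma adjusted p = 0.621). Without teasterone A the averages of XTH33 and XTH16 were 0.40 and 0.32, against 0.62 and 0.49 with all arrays. XTH16 differed more in the 6-oxo branch, with 156 and 253 after teasterone and 383 and 345 after 3-dehydroteasterone, than in the 6-deoxo branch, with 201 and 248 after 6-deoxoteasterone and 200 and 301 after 3-dehydro-6-deoxoteasterone. Its log2 differences were 0.85 and 0.13, and their difference of 0.72 (95% interval 0.09 to 1.35) did not pass adjustment (limma adjusted p = 0.971). XTH19, the remaining member of the induced list, averaged 0.33 (limma adjusted p = 0.9), and between 0.14 and 0.52 when single arrays were left out. The 4 members outside the induced list, XTH20, XTH26, XTH32 and EXGT-A3, had averages between -0.15 and 0.09.

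Expansin-like and pectin genes of the induced list also had averages above 0. EXLA2 read 48.7 and 65.5 after teasterone and 110 and 114 after 3-dehydroteasterone. It read 34.5 and 68.6 after 6-deoxoteasterone and 62.5 and 81.6 after 3-dehydro-6-deoxoteasterone. The 6-oxo arrays were apart and the 6-deoxo arrays overlapped, with an average of 0.71 ± 0.20 (limma adjusted p = 0.535). EXLA1 averaged 0.65 ± 0.31, and 0.37 without teasterone A. The other 6 expansin-like and β-expansin genes, of which 4 were dim with means of 14 to 25, lay between -0.16 and 0.19. ATPMEPCRB, a pectin methylesterase, averaged 0.41 ± 0.21, with 0.12 in the 6-oxo and 0.69 in the 6-deoxo branch. The other 3 pectin methylesterases tested stood at 0.02, 0.04 and 0.39.

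The pair of tested GDSL lipase genes, which encode secreted esterases of a large plant family, had averages among the highest of the listed genes. AT1G29660 read 79.6 and 332 after teasterone and 250 and 445 after 3-dehydroteasterone. After 6-deoxoteasterone it read 60.4 and 305, and after 3-dehydro-6-deoxoteasterone 169 and 386. Array B exceeded array A for all 4 compounds, and for mock too (28.9 and 49.9), so that the groups overlapped although the 3-oxo array was the higher within each letter. Its average was 0.94 ± 0.22 (limma adjusted p = 0.409), and AT5G45670 had 0.82 ± 0.18 (adjusted p = 0.274). AT5G45670 showed the same letter pattern, with 74.0 and 190 after teasterone and 171 and 272 after 3-dehydroteasterone.

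**Figure D3:**
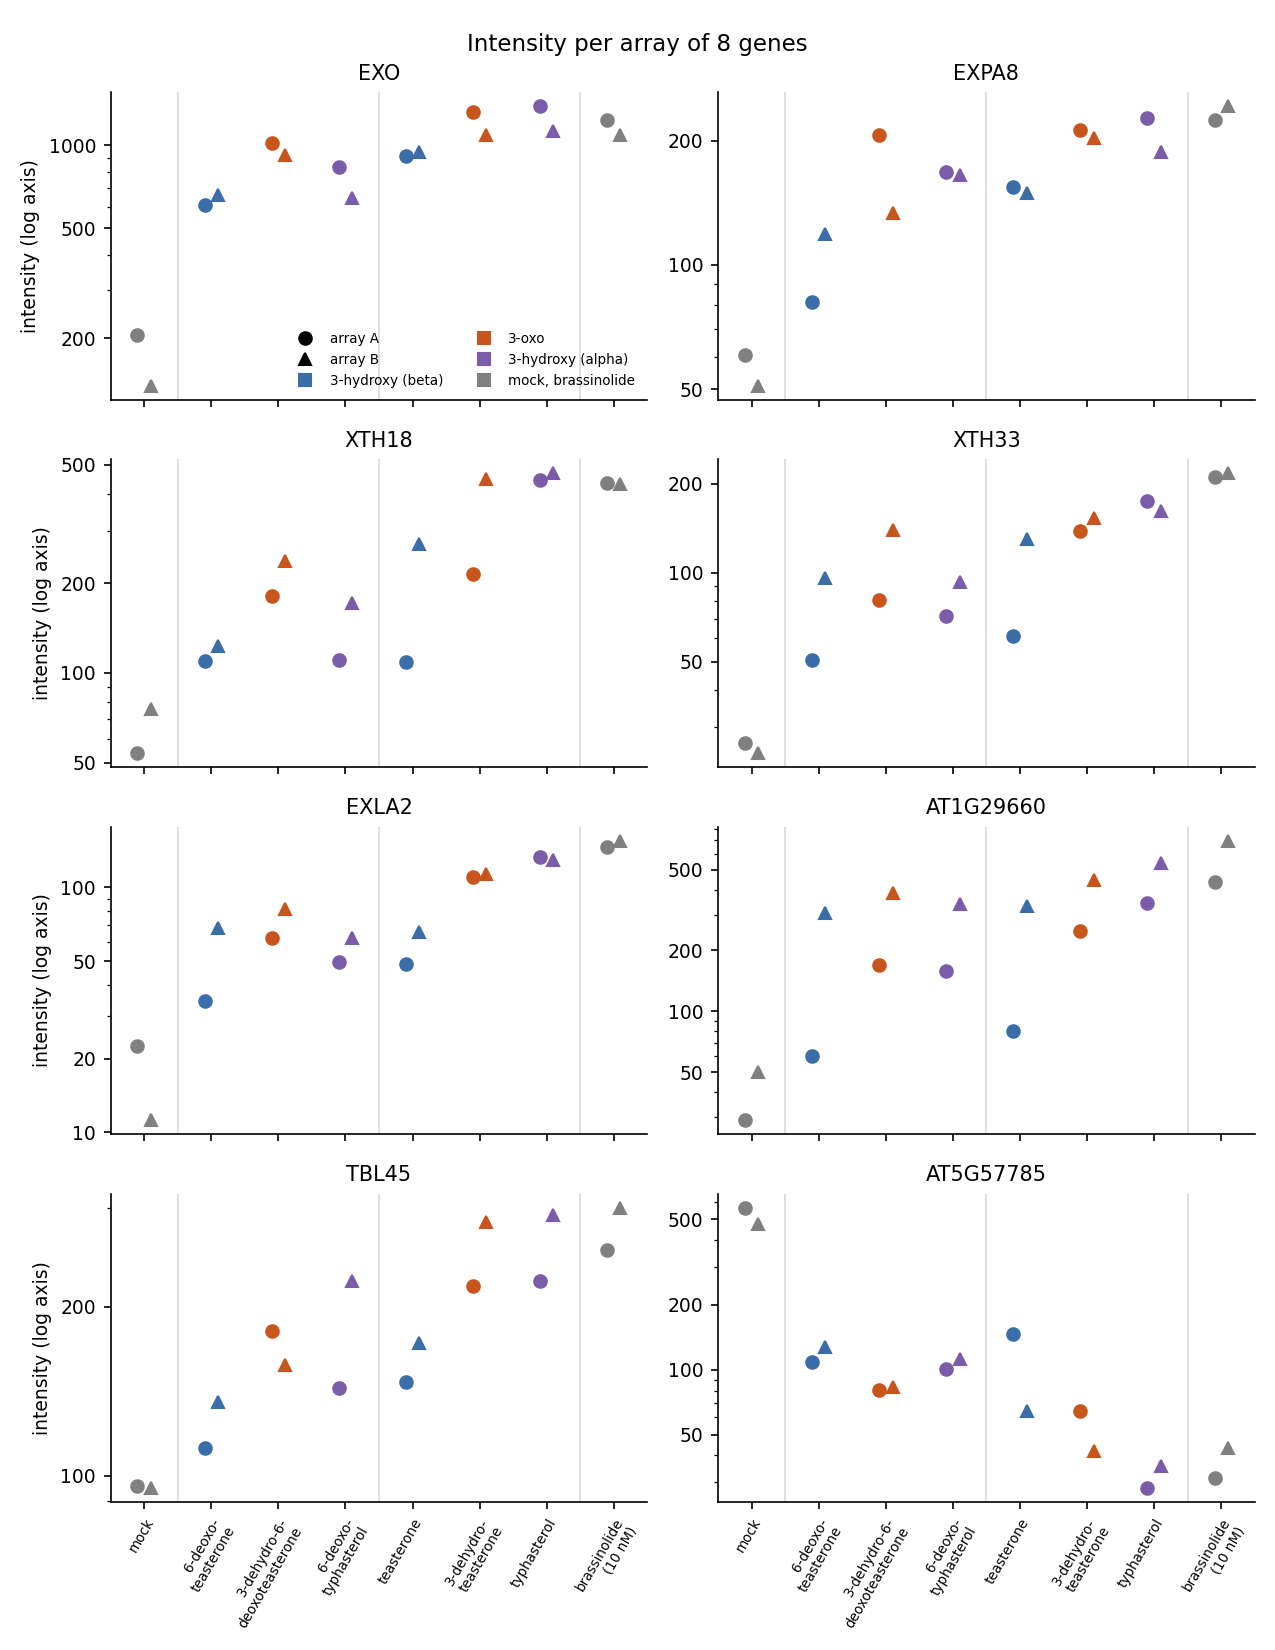
Intensity (log axis) of 8 genes on each array (circle A, triangle B) for mock, the 3β-hydroxy, 3-oxo and 3α-hydroxy compounds of both branches at 1 µM, and brassinolide at 10 nM. EXO, EXPA8 and TBL45 have both 3-oxo arrays above both substrate arrays in each branch, AT1G29660 has them higher within each letter only, and AT5G57785 is lower (64.3 and 41.8 against 146 and 64.4 in the 6-oxo branch).

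No probe set that names a gene passed the test, so the genes named next are those with the lowest unadjusted p, and their differences are values, not calls. The 12 higher on average with no overlap in either branch were TBL45, AT3G01210, EXPA8, XERICO, AT4G01760, AT2G34510, AT5G01075, AT4G17215, MSRB9, AT1G45688, AT4G35320 and AT2G47440. Of these 12, 8 belong to the induced list, which held 2.98% of all tested probe sets. It held 25.1% of the 399 probe sets that were higher without overlap in both branches. TBL45, of the trichome birefringence-like family that O-acetylates wall polysaccharides, read 147 and 172 after teasterone and 218 and 283 after 3-dehydroteasterone. It read 112 and 135 after 6-deoxoteasterone and 181 and 157 after 3-dehydro-6-deoxoteasterone. Mock stood at 95.8 and 95.3, and both product arrays lay above both substrate arrays in each branch (average 0.53 ± 0.11, limma adjusted p = 0.274). XERICO, a RING-type zinc finger gene linked to abscisic acid levels and drought tolerance, read 152 and 135 after teasterone and 244 and 168 after 3-dehydroteasterone. It read 127 and 123 after 6-deoxoteasterone and 231 and 138 after 3-dehydro-6-deoxoteasterone, so that A arrays exceeded B arrays, against the direction of the GDSL genes. Its average was 0.49 ± 0.12 (limma adjusted p = 0.452).

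AT2G34510 read 125 and 206 after teasterone and 288 and 257 after 3-dehydroteasterone, and 90.8 and 162 after 6-deoxoteasterone against 181 and 221 (average 0.72 ± 0.18). MSRB9, a methionine sulfoxide reductase, and AT1G45688 had larger differences in the 6-oxo branch (0.68 and 0.49) than in the 6-deoxo branch (0.19 and 0.11). The intervals of their branch difference were 0.01 to 0.98 and 0.03 to 0.71, and neither passed adjustment (limma adjusted p = 0.971). AT4G35320 and AT2G47440 averaged 0.48 ± 0.13 and 0.45 ± 0.13, evenly in both branches. The 4 outside the list, AT3G01210, AT4G01760, AT5G01075 and AT4G17215, were dim, at 48.7 or less on all 8 arrays. AT4G17215 read 10.8 and 18.6 after teasterone and 20.5 and 21.7 after its product, and 7.31 and 10.0 after 6-deoxoteasterone and 27.5 and 25.2 after its product, with brassinolide at 19.2 and 21.4.

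The repressed list had a smaller step. It held 1.01% of all tested probe sets and 4.67% of the 364 that were lower without overlap in both branches. AT5G57785 was the 1 of the 12 named lower genes that belongs to it. It read 564 and 475 in mock, 146 and 64.4 after teasterone and 64.3 and 41.8 after 3-dehydroteasterone. After 6-deoxoteasterone it read 108 and 127, and after 3-dehydro-6-deoxoteasterone 80.8 and 83.4. The groups were apart in the 6-deoxo branch, and in the 6-oxo branch teasterone B and 3-dehydroteasterone A were almost equal; the average was -0.67 ± 0.20 (limma adjusted p = 0.566), and -0.39 without teasterone A. P1R1, also of that list, read 39.1 and 39.5 after teasterone and 27.1 and 26.1 after 3-dehydroteasterone, and 32.6 and 30.1 after 6-deoxoteasterone and 18.3 and 23.6 after 3-dehydro-6-deoxoteasterone. Its arrays did not overlap between substrate and product in either branch, and gave -0.49 in each branch (average -0.49 ± 0.15, limma adjusted p = 0.584). After the 3-oxo compounds P1R1 lay below its level after brassinolide (29.3 and 32.9), which was not tested. AT5G01740, another repressed gene, averaged 0.00 ± 0.22 and changed sign when single arrays were left out.

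The other 11 named lower genes, AT5G54830, AT5G07860, AT3G01160, AT1G05910, AT1G69730, AT1G12650, AT3G62820, AT1G24140, AT1G79970, AT4G34500 and AT4G14930, are in neither list. AT5G54830 read 132 and 139 after teasterone and 98.4 and 71.9 after 3-dehydroteasterone, and 142 and 140 after 6-deoxoteasterone and 91.5 and 111 after 3-dehydro-6-deoxoteasterone. Brassinolide read 134 and 145, typhasterol 157 and 118, and mock 135 and 99.3, so that mock B lay within the range of the product arrays. The average was -0.56 ± 0.12 (limma adjusted p = 0.274). The averages of the other 10 ran from -1.08, for the dim AT1G24140, to -0.30, for AT1G79970. The value of AT1G24140 depended on the pseudocount of 5, and was -1.61 with 1 and -0.51 with 20.

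No probe set passed the test of a difference between the branches, and the intervals were wide. The step in the 6-oxo branch was the larger for 260 of the 524 induced probe sets, which is 49.6%, against 44.7% of all tested, and the median difference between branches was -0.00. For EXO the difference between branches was -0.24 (95% interval -0.89 to 0.40), for EXPA8 -0.29 (-0.87 to 0.29), for XTH18 0.02 (-0.87 to 0.91) and for AT1G29660 0.13 (-0.78 to 1.04). These intervals leave room for steps that differ about 2-fold between the branches, so equal steps are not shown. limma called 0 of 524 induced and 0 of 178 repressed probe sets for the difference. An unadjusted p under 0.05 by limma was found for 22 and 13 of them, against 803 of all 17606 tested.

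Genes with the lowest unadjusted p for the difference had values of opposite sign in the branches without passing the test. AT3G20790, of the repressed list, read 106 and 113 after teasterone and 150 and 155 after 3-dehydroteasterone, but 170 and 164 after 6-deoxoteasterone and 130 and 110 after 3-dehydro-6-deoxoteasterone. Substrate and product arrays were apart in each branch, in opposite order, with 0.46 in the 6-oxo and -0.46 in the 6-deoxo branch (difference 0.92 ± 0.21, limma adjusted p = 0.815). AT4G25780, also repressed by brassinolide, had 0.59 and -0.73 (difference 1.33 ± 0.29, limma adjusted p = 0.815). AT5G58100 (0.90 and -0.28) and AT1G60200 (0.50 and -0.49) followed the same order. AT1G66850, AT5G38300, GH9B12, an endoglucanase-like gene of glycosyl hydrolase family 9, and AGL80, a MADS-box gene known from the central cell of the embryo sac, went the other way. AT1G66850 had -1.34 and 1.02 with a difference of -2.37 ± 0.44 (limma adjusted p = 0.431), on intensities of 1.71 to 17.8 over the 8 arrays, near the level at which probe sets were left out.

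Within single branches the rule added a few genes. In the 6-oxo branch AT5G22600 read 12.1 and 36.2 after teasterone and 1.75 and 2.15 after 3-dehydroteasterone (log2 difference -1.93 ± 0.38, limma adjusted p = 0.696), and stood at 0.09 in the 6-deoxo branch. AT5G62420 also stood lower there (-1.40). In the 6-deoxo branch ACLA-2, a subunit of ATP-citrate lyase, which makes cytosolic acetyl-CoA, read 77.2 and 84.4 after 6-deoxoteasterone and 133 and 140 after 3-dehydro-6-deoxoteasterone. This was a log2 difference of 0.72 against 0.06 in the 6-oxo branch, with mock at 96.5 and 128. AT4G39420 stood higher there (0.88), and AT3G60590 (-0.93) and AT5G15060 (-1.42) lower.

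Lists of other growth and hormone genes had 0 members past the test in limma, and most lay near the background, as 2.93% of all probe sets were higher and 2.79% lower at an unadjusted p under 0.05. Tubulins, which form the microtubules that guide cellulose deposition, had 6 of 7 members higher with a median of 0.22, and 4 of the 7, TUB1, TUB5, TUB6 and TUB7, had an unadjusted p under 0.05. TUB6 read 372 and 384 after teasterone and 515 and 439 after 3-dehydroteasterone, and 411 and 332 after 6-deoxoteasterone and 463 and 414 after 3-dehydro-6-deoxoteasterone. The arrays were apart in both branches, and the average was 0.29 ± 0.10. Of the cellulose synthesis list, COB (COBRA), which orients cellulose microfibrils, averaged 0.23 ± 0.08, CSLD2 0.09 and GH9A3, a glycosyl hydrolase family 9 gene, -0.05. Among the CrRLK1L receptor kinases, which sense the wall, and the RALF peptides that bind them, 6 of 7 were higher with a median of 0.19. Of the 7, 2 (28.6%) were higher and 0 lower at an unadjusted p under 0.05 in limma. The higher members included RALFL33, itself in the induced list (0.29 ± 0.11), RALFL24 (0.30 ± 0.12), THE1 (0.19 ± 0.11) and FER (0.19 ± 0.09).

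Auxin-responsive Aux/IAA and GH3 genes showed no common direction, with 6 of 10 higher, a median of 0.04 and 0 at an unadjusted p under 0.05 in either direction. Of the gibberellin receptors, GID1A, GID1B and GID1C stood at 0.00, 0.08 and 0.02. BAT1, an acyltransferase that inactivates brassinosteroids, was the sole gene of inactivation tested. It read 97.4 and 101 after teasterone and 77.9 and 77.2 after 3-dehydroteasterone, and 81.6 and 99.6 after 6-deoxoteasterone and 73.8 and 78.2 after 3-dehydro-6-deoxoteasterone. Product arrays lay below substrate arrays in both branches by small amounts, and limma gave an unadjusted p of 0.0757. BIM1, a partner of BES1, stood at 0.04 ± 0.13. The histone gene HTB2 averaged -0.36 ± 0.13 and its relatives HTB1, HTB4 and HTB11 lay between -0.10 and 0.04. The root markers EXPA7 and EXPA18 averaged -0.14 and -0.22, neither with an unadjusted p under 0.05. The 6 photosystem genes tested were all higher, by 0.03 to 0.17, with 0 at an unadjusted p under 0.05. Brassinosteroid synthesis genes, SAUR genes and 9 other lists had no tested probe set that names 1 gene and are not analysed here, apart from the plastid list, whose genes were matched by chromosome instead.

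Averaged over the branches, the oxidation was close to the preceding step of the pathway in the induced list and smaller in the repressed list. Its medians there were 0.24 and -0.15 on average over the branches. It had 1 probe set called and 1007 at an unadjusted p under 0.05 in limma. The C-23 hydroxylation that makes the substrates had medians of 0.22 and -0.21. There, 5 probe sets were called higher, 4 lower, and 1197 had an unadjusted p under 0.05 in limma. By branch, the hydroxylation had medians of 0.29 and -0.18 in the 6-oxo and 0.19 and -0.25 in the 6-deoxo branch. The oxidation had 0.22 and -0.15 in the 6-oxo and 0.27 and -0.15 in the 6-deoxo branch. The larger induced step was thus the hydroxylation in the 6-oxo branch and the oxidation in the 6-deoxo branch. The C-3 reduction that follows had medians of -0.00 and 0.00, with 0 called by limma and 622 at an unadjusted p under 0.05. The latter average hid opposite values: reduction to typhasterol gave 0.08 and -0.17, and reduction to 6-deoxotyphasterol -0.10 and 0.17. EXO stood 0.77 ± 0.16 higher across the hydroxylation, 0.49 across the oxidation, and at -0.17 ± 0.16 across the reduction. EXPA8 stood at 0.11 ± 0.14 across the hydroxylation, 0.58 across the oxidation and -0.00 ± 0.14 across the reduction. Each step shares arrays with the next, so that a high array in the middle raises one step and lowers the other, and the differences between steps were not tested.

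**Figure D4:**
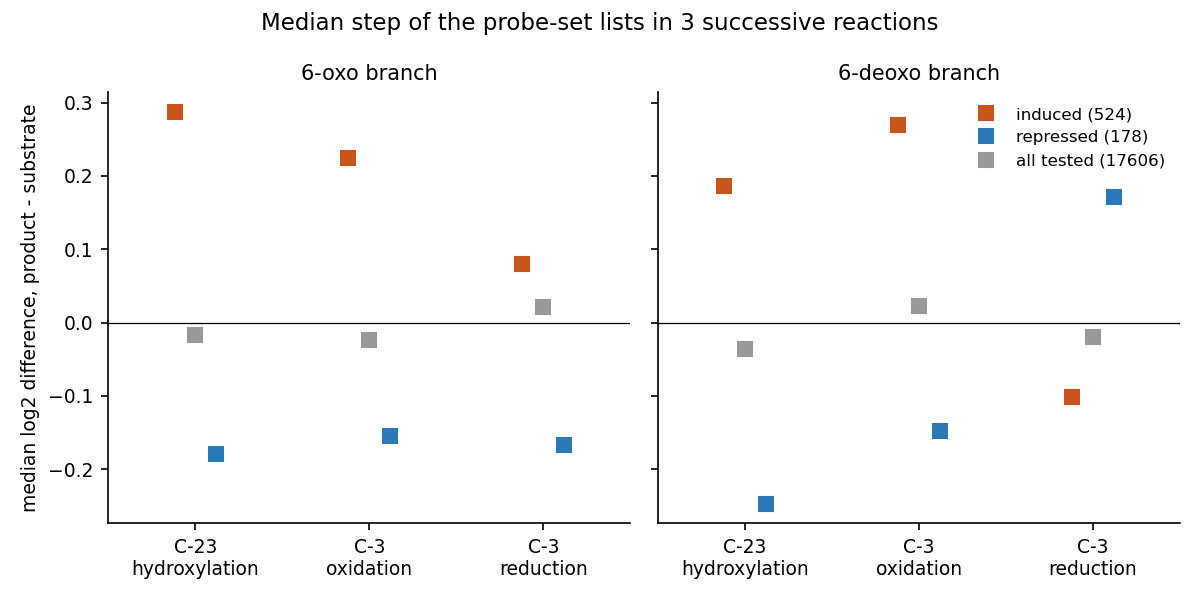
Median log2 difference, product minus substrate, of the 524 induced, 178 repressed and all 17606 tested probe sets in 3 successive reactions, in the 6-oxo (left) and 6-deoxo (right) branch. The C-3 oxidation has induced medians of 0.22 and 0.27 and repressed medians of -0.15 in both, while the C-3 reduction has induced medians of 0.08 and -0.10.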

How the data were processed

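The authors' deposited values are linear MAS5 signal intensities of 26 ATH1 arrays, per the submitters' processing notes; no MAS5 version is given there, and the trimmed mean of each array was 100. Of 22810 probe sets, 64 controls and those with a mean under 10 over the 26 arrays were left out, and 17606 were tested, of which 9861 name exactly 1 gene. Genes were named from the platform annotation, updated through RefSeq (TAIR10.1), where 13436 of 13513 probe sets naming 1 gene matched; 503 name several and 8730 none. The fit was limma 3.58.1 in R 4.3.3 (lmFit, eBayes with a trend) on log2(intensity + 5), with a coefficient for each of 13 groups and the letter A or B as a block (12 residual degrees of freedom). P-values were adjusted by Benjamini-Hochberg over all 17606 at a threshold of 0.05. Contrasts were the average over branches, each branch, and their difference.

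The labels give every group the letters A and B. Deviations of same-letter arrays from their group means correlated across probe sets at 0.28 to 0.48 over the 6 pairs of the 4 compounds. Over all 78 pairs of the 13 groups the range was -0.02 to 0.48, with a median of 0.32. The letters were therefore taken to pair the samples. No depth applies to arrays; 2 arrays a group limit the precision. Named genes are the 12 in each direction with the lowest unadjusted p for the average (4 for a branch or the difference) among those with 1 gene and no overlap between product and substrate arrays, since too few passed the test, plus members of the gene lists. The members, gene lists and tests were chosen with earlier results of these data known, and 5 lists were added after the annotation was read. The tests were tried on simulated data. Alternatives changed the block, arrays, normalization, pseudocount, filter, trend and list rule.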

Additional observations from a re-analysis of the deposited data

How the results depend on the processing

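The average over both branches had 1 called probe set, and 0 with no replicate block (522 at an unadjusted p under 0.05), with the letter as a random block, with the 8 arrays alone, with quantile normalization, median centring, the pseudocount of 1 or eBayes without the trend; it had 2 with no filter. Dropping an array each time gave 0 to 6 calls for the average (6 without 6-deoxoteasterone B), 0 to 1 for the 6-oxo branch (1 without teasterone A), 0 to 2 for the 6-deoxo branch (2 without 3-dehydro-6-deoxoteasterone B) and 0 for the difference. The difference had 1 call with eBayes without the trend. Chosen after seeing the data were the 8 arrays with no replicate block, with 0 calls for the average, and leaving out both arrays of low Rubisco activase, with 0 for the average, the 6-oxo branch and the difference and 1 for the 6-deoxo branch.

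The median of the induced list was positive under all 21 alternatives, between 0.18 and 0.30. That of the repressed list was negative, from -0.18 to -0.11 without single arrays, -0.16 without the 2 arrays of low Rubisco activase, and -0.13 for probe sets called for brassinolide alone. At least 454 of the 524 were higher and 136 of the 178 lower in each fit that tested all of them. Of 34 genes followed, 33 never changed sign. AT5G01740 did in 4 fits that each left out 1 array, with -0.09 without teasterone B or 3-dehydro-6-deoxoteasterone A, -0.17 without 3-dehydroteasterone A and -0.19 without 6-deoxoteasterone B; the highest of its values was 0.20, without 6-deoxoteasterone A. Dim probe sets such as AT1G66850 lie near the background.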

Other observations

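Plastid-encoded genes, a list added after the annotation was read, stood slightly higher with the 3-oxo group, with 60 of 69 tested probe sets higher on average, which is 87.0% against 49.9% of all, and a median of 0.12. Of these, 4 (5.80%) were higher and 2 (2.90%) lower at an unadjusted p under 0.05 in limma, against 2.93% and 2.79% of all, and 0 were called. The photosystem I gene psaC read 516 and 533 after teasterone and 889 and 523 after 3-dehydroteasterone, and 505 and 523 after 6-deoxoteasterone and 708 and 620 after 3-dehydro-6-deoxoteasterone. Its A arrays carried the difference in the 6-oxo branch, since the B arrays were almost equal. The clpP and rpoA genes, which encode a protease subunit and an RNA polymerase subunit of the plastid, averaged -0.44 ± 0.18 and -0.42 ± 0.20.

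UDP-glycosyltransferases, several of which attach glucose to hormones, had 22 of 35 members lower with a median of -0.10, and 1 lower and 0 higher at an unadjusted p under 0.05. The tested cytochrome P450 genes, mostly of the CYP71B group, had 10 of 15 lower with a median of -0.15, and 2 lower and 0 higher at an unadjusted p under 0.05, which is 13.3% lower against 2.79% of all probe sets. Their medians were -0.40 in the 6-oxo and 0.05 in the 6-deoxo branch, a difference that was not tested for the list. SWEET sugar transporters and tau-class glutathione transferases had medians of 0.03 and 0.02.

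The defensin gene PDF1.2 ranged over the 8 arrays from 7.75 on 3-dehydroteasterone A to 165 on 6-deoxoteasterone A, with 56.1 on 6-deoxoteasterone B and 87.7 on teasterone B. Mock read 9.76 and 206. RCA was also low on brassinolide B (53.9, against 305 on brassinolide A).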
